A study of Homo sapiens with 3 samples.

Results

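The 58 genes described here encode subunits of the oxidative phosphorylation complexes that are made from nuclear DNA, in TK-10 renal carcinoma cells treated with vehicle, cordyceps or sunitinib. They were chosen by name as subunits of complexes I to V; the rule uses no measured value, but it was set with earlier results of these data known: 28 belong to complex I, 4 to complex II, 7 to complex III, 10 to complex IV and 9 to complex V. On the arrays, 75 probes carried an accession of these genes, of 58201 probes for genes in all, of which 31104 could be named and stood for 22439 genes. All 58 genes had a probe, 45 of them 1 probe and 13 of them several.

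TK-10 is an established human cell line from a renal carcinoma. The 3 groups, of 1 array each, were all taken after 48 h: cells given 0.1% DMSO as vehicle, cells given 750 μg/ml cordyceps, and cells given 10 μM sunitinib, an inhibitor of receptor tyrosine kinases used against renal cancer. Cordyceps is a genus of fungi from which cordycepin, an analogue of adenosine, is obtained. The label of the treated array names cordyceps, while the study's methods name cordycepin at another concentration, and the label's name is used here. By the labels, all groups grew in DMEM with 10% serum and 1% antibiotic, with zinc sulfate at 16.7 μM, troglitazone at 10 μM and nicotinamide at 10 mM added. The medium described in the study's methods does not list the last 3 additions. Troglitazone activates the nuclear receptor PPARγ and nicotinamide is a precursor of NAD, so the vehicle cells were not free of compounds that bear on metabolism. Each comparison was 1 array over the vehicle array, so there is no replicate, no p-value and no SD over cultures for any value below.

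Oxidative phosphorylation takes place in the inner mitochondrial membrane. Complex I accepts electrons from NADH and complex II from succinate, complex III passes them from ubiquinol to cytochrome c, complex IV passes them to oxygen, and complex V, the ATP synthase, uses the proton gradient built by complexes I, III and IV to make ATP. Most subunits are encoded in the nucleus and imported, while the catalytic centres of complexes I, III and IV also need subunits encoded in mitochondrial DNA. Transcription of the nuclear genes is known to depend on the factors NRF1, GABPA, YY1 and ERRα and on coactivators of the PGC-1 family. In clear cell renal carcinoma, low expression of these subunits and a reliance on glycolysis are well known.

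Start sites of 4 members are printed to show such motifs beside the genes on which the results turn. UQCRH had the highest and ATP5MC1 the lowest ratio with sunitinib, NDUFS1 was the lowest core subunit of complex I with sunitinib, and SDHD held 3 of the motifs searched, as NDUFS7 also did, the GC box aside. The runs are from RefSeq on build GRCh38.p14, read 5′ to 3′ on the strand of the gene, each from 250 bases before the annotated start to 30 bases after it, and capitals mark a match to any motif searched other than the GC box, which is left in lower case.
UQCRH chr1:46303448-46303727, plus strand: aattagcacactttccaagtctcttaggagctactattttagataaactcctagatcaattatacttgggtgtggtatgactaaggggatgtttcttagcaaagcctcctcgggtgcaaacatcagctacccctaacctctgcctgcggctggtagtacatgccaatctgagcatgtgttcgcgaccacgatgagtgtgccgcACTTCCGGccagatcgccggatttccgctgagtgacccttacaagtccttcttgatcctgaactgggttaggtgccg
ATP5MC1 chr17:48892537-48892816, plus strand: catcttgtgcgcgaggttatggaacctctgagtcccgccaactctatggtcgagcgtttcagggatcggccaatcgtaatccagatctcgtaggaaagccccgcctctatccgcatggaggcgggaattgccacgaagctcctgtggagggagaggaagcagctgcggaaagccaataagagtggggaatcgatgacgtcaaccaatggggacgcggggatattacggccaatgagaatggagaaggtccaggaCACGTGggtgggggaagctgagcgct
NDUFS1 chr2:206159415-206159694, minus strand: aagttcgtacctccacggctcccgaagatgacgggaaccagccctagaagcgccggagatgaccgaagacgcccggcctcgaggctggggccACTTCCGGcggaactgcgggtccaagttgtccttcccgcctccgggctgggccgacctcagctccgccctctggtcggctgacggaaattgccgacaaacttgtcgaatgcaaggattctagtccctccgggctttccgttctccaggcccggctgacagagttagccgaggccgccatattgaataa
SDHD chr11:112086623-112086902, plus strand: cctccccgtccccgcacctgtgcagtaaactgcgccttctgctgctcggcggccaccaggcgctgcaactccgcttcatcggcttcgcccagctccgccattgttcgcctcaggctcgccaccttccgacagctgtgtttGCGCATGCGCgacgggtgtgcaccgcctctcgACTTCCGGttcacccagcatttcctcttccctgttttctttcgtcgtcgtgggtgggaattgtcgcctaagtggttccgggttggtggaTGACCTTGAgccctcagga
The capitals in UQCRH, from base 204 of the run, and in NDUFS1, from base 93, are the ETS motif bound by GABPA (CCGGAAGT, here on the other strand). ATP5MC1 held an E-box (CACGTG) from base 255. SDHD held the NRF1 motif (GCATGCGC) on each strand, from bases 141 and 143 and so overlapping, the ETS motif from base 173 and the ERR element (TNAAGGTCA, on the other strand) from base 262. A match shows that the letters are present and not that a factor is bound.

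The arrays held 62976 spots each and no saturated spot. Of all probes, 45.5% were well above background on the vehicle array, 37.8% on the cordyceps array and 38.3% on the sunitinib array, by the scanner software's own criterion. The 75th percentile of the processed signal, to which each array was scaled, was 164.6, 137.9 and 78.2. A bright streak covered 567 spots, 0.900% of the cordyceps array. Of the markers of renal epithelium and renal carcinoma, 13 of 16 with a probe were well above background on the vehicle array, among them PAX8 and KRT18, and CDH1, CA9 and CUBN were not. Of the 4 fibroblast markers, 3 were well above background on each array. Their summed signal, in units of the array's 75th percentile, was 40.8 on the vehicle array, 12.8 on the cordyceps array and 12.1 on the sunitinib array, with COL1A2 not well above background on any of them. Leukocyte markers summed to 4.32, 2.71 and 2.07, with CD3E not well above background on any array, and endothelial markers to 1.25, 1.11 and 0.772, with PECAM1 not well above background on any array. In the same units, the markers of renal epithelium and renal carcinoma summed to 2330, 2013 and 2973. An array of pooled RNA cannot tell fewer cells of a type from less transcript per cell. The part of all these markers in the results below was not tested.

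All 58 subunits were well above background on all 3 arrays. The processed signal of the brightest probe of each gene ran from 187 to 56149 with a median of 6463 on the vehicle array, from 286 to 60516 with a median of 6711 on the cordyceps array, and from 211 to 29687 with a median of 2859 on the sunitinib array. The dimmest of them was still at least 9.45 times the lowest signal that counted as well above background on the same array. The strongest vehicle signals were those of COX6A1, an accessory subunit of complex IV, at 56149, of the complex III subunit UQCRQ at 46458, and of the complex IV subunit COX7C at 43774. UQCRH, the hinge protein of complex III, had the weakest at 187, followed by the complex I subunit NDUFA9 at 615 and the complex II membrane anchor SDHD at 732. Signals of different probes depend on the probe as well as on the transcript, so this order is of signals and not of transcript levels. Neighbours in it, as NDUFA9 and SDHD, can lie within the error of the spots. In all that follows, a level is log2 of the signal relative to the 75th percentile of its array, and a log2 ratio is the difference between a treated and the vehicle level.

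**Figure D1:**
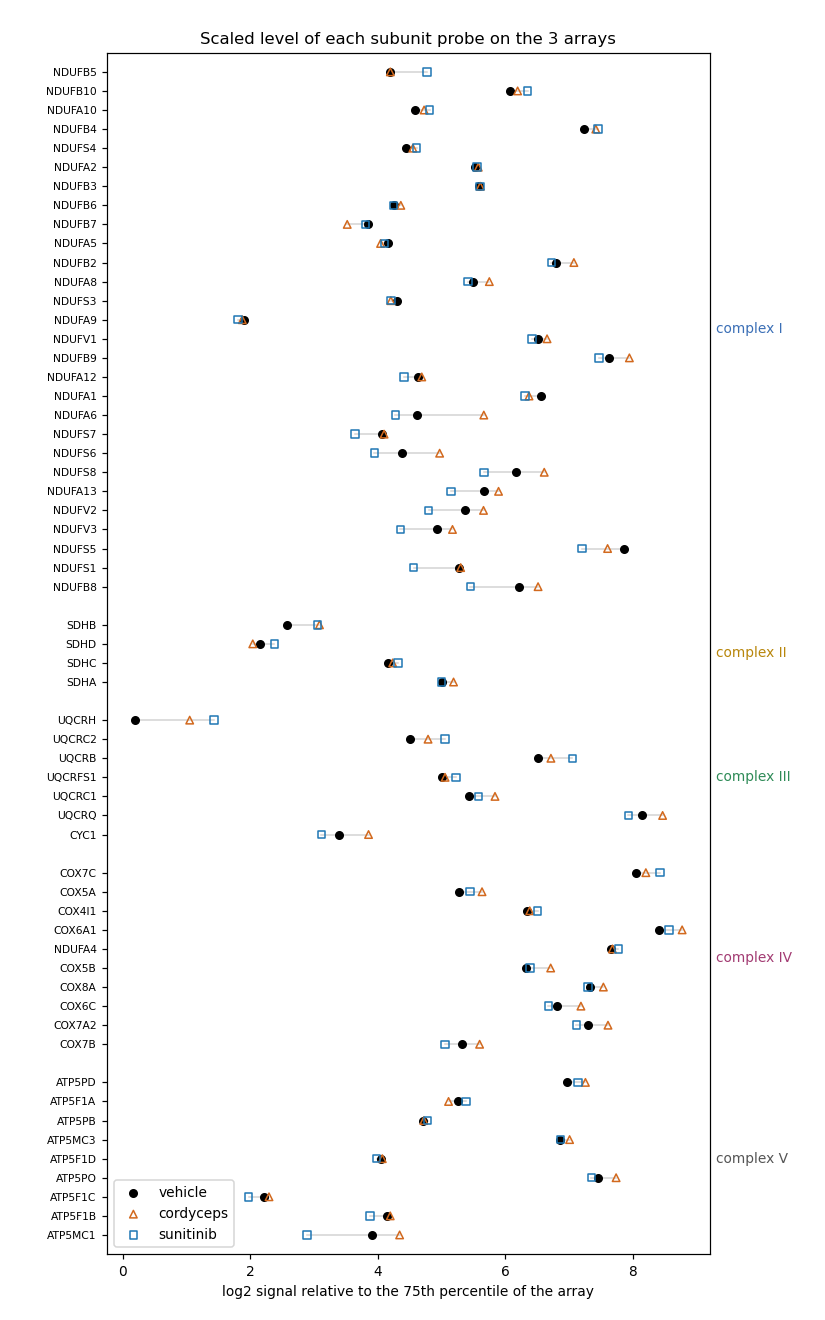
Level of the brightest probe of each of the 58 subunits, as log2 of the signal relative to the 75th percentile of the array (horizontal axis), on the vehicle (filled circles), cordyceps (triangles) and sunitinib (squares) arrays, 1 array each, grouped by complex and ordered by the sunitinib ratio. For most genes the 3 symbols lie close together; UQCRH lies at 0.19, 1.05 and 1.43, and ATP5MC1 lies at 3.92, 4.34 and 2.89.

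Cordyceps was compared with vehicle to ask which genes its treatment altered. The subunits lay slightly above the vehicle array as a group: the median log2 ratio was 0.16, with quartiles of 0.04 and 0.30, while the median of all 14786 genes compared was 0. Higher by any amount were 50 of the 58 subunits (86.2%), against 46.1% of all genes, and 8 were lower (13.8%), against 48.0%. Without a filter on dim probes the median of all genes was 0.14, and the subunits lay only 0.02 above it. Under quantile normalization 31 were higher and 27 lower, with a median of 0.01, and with normexp background correction 36 and 22. Few of these differences exceeded the measurement error of the spots. The combined error that the scanner software gave for a ratio was between 0.204 and 0.211 on the log2 scale for every subunit, so that its 95% limit was between 0.40 and 0.41. Beyond this limit 8 subunits were higher (13.8%), a share close to the 13.2% of all genes, and 0 were lower, where 11.9% of all genes were. A single subunit, NDUFA6, was more than 2-fold higher (2.99% of all genes) and 0 were more than 2-fold lower (2.76%). This error covers the spot alone and leaves out the spread between cultures.

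Of the subunits, 53 fell among the 3697 genes of highest vehicle level. Over those 3697 genes the median log2 ratio was 0.04, and 54.6% were higher by any amount.

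**Figure D2:**
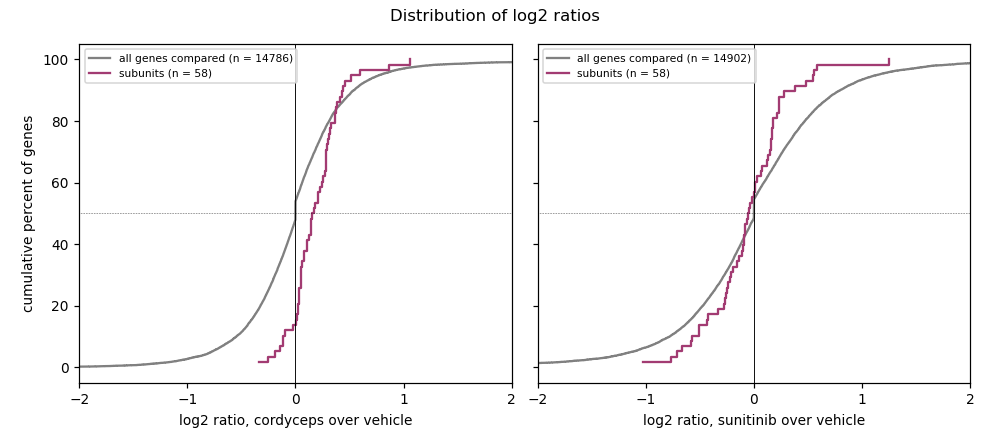
Cumulative percent of genes (vertical axis) by log2 ratio over vehicle (horizontal axis), for cordyceps on the left and sunitinib on the right, with 1 array a group. The 58 subunits (purple) lie to the right of all genes compared (grey) for cordyceps up to about the 80th percent, with a median of 0.16, and for sunitinib they span a narrower range around a median of -0.05.

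By complex, the medians with cordyceps were 0.12 for complex I, 0.13 for complex II, 0.33 for complex III, 0.29 for complex IV and 0.08 for complex V. All 7 subunits of complex III and all 10 of complex IV were higher by any amount, beside 22 of 28 in complex I, 3 of 4 in complex II and 8 of 9 in complex V.

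Sunitinib was compared with vehicle as a drug in clinical use. Its ratios were centred near 0: the median over the subunits was -0.05, with quartiles of -0.25 and 0.16, beside 0 over all 14902 genes and -0.07 over the 3726 of highest vehicle level. Higher by any amount were 25 subunits (43.1%), against 45.5% of all genes, and 33 were lower (56.9%), against 48.5%. Beyond the error limit 5 subunits were higher (8.62%), against 19.8% of all genes, and 10 were lower (17.2%), against 19.0%. Among the 3726 genes of highest vehicle level these shares were 18.7% and 26.0%. UQCRH was the only subunit more than 2-fold higher (6.58% of all genes) and ATP5MC1 the only one more than 2-fold lower (6.48%). Scaled to the median of all probes instead, 1 subunit was higher and 27 were lower beyond the error limit, and the median of all genes itself was then -0.31. Of 14907 genes, 1295 were higher and 5558 lower beyond the limit in that setting. With normexp background correction the counts were 1 and 28, with a median of all genes of -0.07, beside 1336 and 3956 of 14907 genes. In both settings, as in the series' own unscaled table, UQCRH was no longer past 2-fold, while ATP5MC1 was past it in every setting. Without a filter on dim probes the median of all genes was 0.25, and that of the subunits minus it was -0.29.

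By complex, the median log2 ratios with sunitinib were -0.10 for complex I, 0.20 for complex II, 0.23 for complex III, 0.09 for complex IV and -0.06 for complex V. Scaled to the median of all probes, all 5 medians were below 0, and with normexp or without a filter all 5 were below the median of all genes. Of the 10 subunits lower beyond the error limit, 9 were among the 28 of complex I and 1 among the 9 of complex V. Of the 5 that were higher, 3 were among the 7 of complex III, 1 among the 4 of complex II and 1 in complex I. Of all genes, 19.0% were lower and 19.8% higher beyond that limit. Among the 3726 genes of highest vehicle level, which held 53 of the subunits, 26.0% were lower and 18.7% higher.

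**Figure D3:**
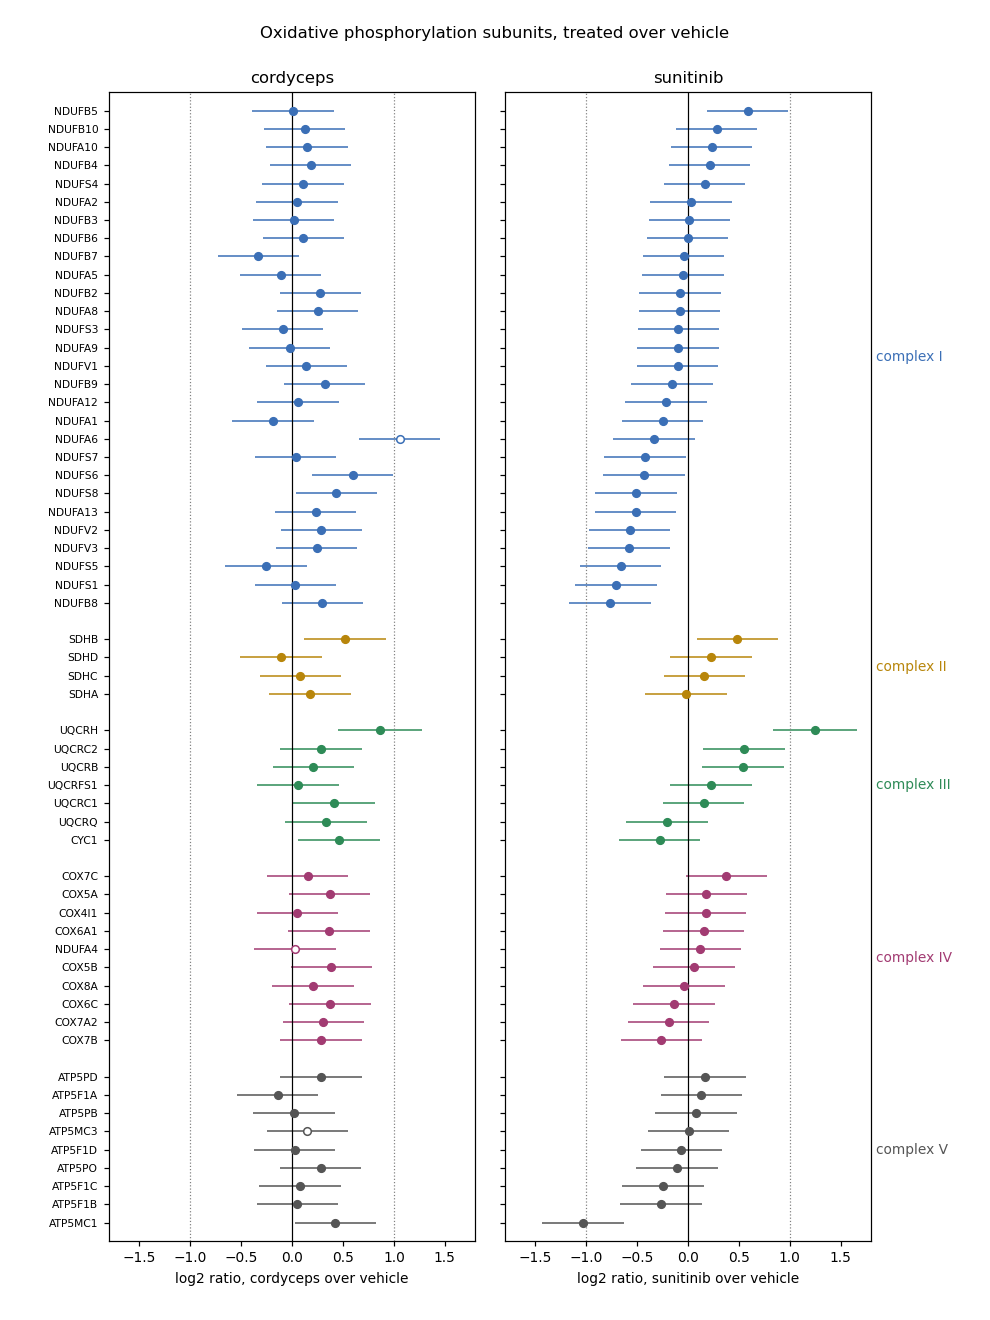
Log2 ratio over vehicle (horizontal axis) of each of the 58 subunits for cordyceps on the left and sunitinib on the right, grouped by complex. Bars are the 95% limits of the scanner software's error for 1 array against 1, dotted lines mark 2-fold, and open circles mark probes whose only spot lay in the bright streak of the cordyceps array; all complex III and IV circles lie above 0 for cordyceps, and most complex I circles lie below 0 for sunitinib.

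In complex I, the core subunits carry the flavin and the iron-sulfur clusters along which electrons move. NDUFS1, the largest of them and holder of several clusters, had levels of 5.27 on the vehicle array, 5.30 on the cordyceps array and 4.56 on the sunitinib array, a log2 ratio of 0.03 and -0.71. NDUFV2, which carries a cluster beside the flavin, lay at 5.37, 5.66 and 4.80, or 0.29 and -0.57. NDUFS8 stood at 6.18, 6.61 and 5.67, which put it beyond the error limit in opposite directions, at 0.44 with cordyceps and -0.51 with sunitinib. For NDUFS7, levels of 4.07, 4.10 and 3.65 gave 0.03 and -0.42. NDUFV1, which binds NADH and the flavin, and NDUFS3 were within the error limit in both comparisons, at 0.14 and -0.10 and at -0.09 and -0.09. All 6 core subunits among the members were thus lower with sunitinib by any amount, where 48.5% of all genes were. Beyond the error limit 4 of the 6 were lower, where 19.0% of all genes and 26.0% of the 3726 genes of highest vehicle level were. Their median was -0.47, beside -0.08 over the 22 accessory subunits.

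Accessory subunits surround this core and are needed for its assembly and stability. Lowest with sunitinib was NDUFB8, a subunit of the membrane arm, at levels of 6.22, 6.52 and 5.45 and log2 ratios of 0.30 with cordyceps and -0.77 with sunitinib. Its second probe gave 0.32 and -0.86. NDUFV2, also with a second probe, was likewise repeated at 0.37 and -0.62. NDUFS5 was lower in both comparisons, at 7.86, 7.61 and 7.20, by 0.26 and 0.66 on the log2 scale, the former within the error limit. NDUFV3, at 4.93, 5.17 and 4.35, and NDUFA13, a subunit also known as GRIM-19, at 5.67, 5.90 and 5.15, had ratios of -0.58 and -0.51 with sunitinib. NDUFS6, which binds zinc, lay at 4.38, 4.97 and 3.95, for 0.59 and -0.43. NDUFB5, of the membrane arm, was the highest complex I subunit with sunitinib, at 4.19, 4.20 and 4.78, with a ratio of 0.59 and of 0.32 at its second probe, the latter within the error limit. NDUFB7 was the lowest with cordyceps, at 3.86 on the vehicle array and 3.52, a ratio of -0.33 within the error limit, and it passed that limit under quantile normalization, normexp and in the unscaled table. NDUFA9, among the dimmest subunits, hardly differed at 1.90, 1.88 and 1.81.

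NDUFA6 had the highest ratio with cordyceps, and its only spot lay in the bright streak. Its processed signal was 4023 on the vehicle array, 6999 on the cordyceps array and 1516 on the sunitinib array, for log2 ratios of 1.05 and -0.33. Of the 48 spots around it, the median signal came to 3150 with cordyceps, beside 19.0 with vehicle and 12.8 with sunitinib, and 25 of them exceeded 16-fold over the brighter of the other 2 arrays. Once these spots were removed, NDUFA6 had no value and 0 subunits were more than 2-fold higher with cordyceps. Of the other subunits, NDUFA4 and ATP5MC3 also had their only spot in the streak, with ratios of 0.03 and 0.15 with cordyceps and surrounding medians of 3867 and 729 against signals of 28356 and 17794. COX7C had 1 of its 10 spots there and NDUFS5 2 of its 10, which their averages include.

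Complex II, the succinate dehydrogenase, is shared between the respiratory chain and the tricarboxylic acid cycle. SDHB, which carries the iron-sulfur clusters, was higher beyond the error limit in both comparisons, at levels of 2.57, 3.09 and 3.06 and ratios of 0.52 and 0.49. SDHA, the flavoprotein, was measured with 4 probes: the brightest gave 0.17 and -0.02, and the other 3 gave between -0.00 and 0.35 with cordyceps and between 0.44 and 0.86 with sunitinib. The membrane anchors SDHC and SDHD stayed within the limit, at 0.08 and 0.16 and at -0.11 and 0.23. SDHD, whose start site is printed above, lay at 2.15, 2.04 and 2.38, and was the lowest of complex II with cordyceps.

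In complex III, UQCRH stood out on both treated arrays. It is an acidic subunit beside cytochrome c1. The processed signals were 187 on the vehicle array, 286 on the cordyceps array and 211 on the sunitinib array, which after scaling gave levels of 0.19, 1.05 and 1.43. The ratios were thus 0.86 with cordyceps and 1.25 with sunitinib, or 1.82-fold and 2.37-fold, and the second probe gave 0.70 and 1.00. A near-identical copy of this gene without introns, UQCRHL, had no probe named here, and how far the signal comes from it was not tested. UQCRC2, a core protein of the complex, lay at 4.51, 4.79 and 5.06, and UQCRB, which helps to hold ubiquinone, at 6.51, 6.72 and 7.05, for 0.55 and 0.54 with sunitinib. Their ratios with cordyceps, 0.28 and 0.21, were within the error limit. UQCRC1, the other core protein, reached 0.41 with cordyceps and 0.15 with sunitinib. CYC1, the cytochrome c1 that hands electrons to cytochrome c, was higher with cordyceps at 0.46 and lay at -0.28 with sunitinib, the lowest of the complex there, within the error limit. UQCRFS1, the Rieske iron-sulfur protein, was the lowest with cordyceps at 0.06 and had 0.23 with sunitinib. UQCRQ, the brightest of the complex, gave 0.33 and -0.21.

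Complex IV differed little and evenly with cordyceps. Its 10 ratios ran from 0.03 for NDUFA4 to 0.38 for COX5B, and none passed the error limit in either comparison. COX5A, COX6C and COX6A1 followed COX5B at 0.37, 0.37 and 0.36, just inside that limit. These 4 have no spot in the streak, but passed the limit when its spots were removed and the array was scaled without them. The number of subunits higher beyond the limit with cordyceps was then 11 of 55, beside 2148 of 14652 genes. With sunitinib the ratios ran from -0.26 for COX7B to 0.38 for COX7C, and 6 of the 10 were above 0. NDUFA4, first assigned to complex I and now known as a subunit of complex IV, had signals of 33164, 28356 and 17152 and a ratio of 0.12 with sunitinib.

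In complex V, the c ring is the rotor turned by protons, and its subunit c is made from several genes that encode the same mature protein. ATP5MC1 was the lowest of all 58 subunits with sunitinib, at processed signals of 2490, 2802 and 579 and levels of 3.92, 4.34 and 2.89, a ratio of -1.03 or 2.04-fold lower. With cordyceps it was higher beyond the error limit, at 0.43. The second gene of the ring, ATP5MC3, had 0.15 and 0.01. ATP5MC2, which is not among the 58, had 0.14 and 0.49, higher beyond the error limit with sunitinib and thus opposite to ATP5MC1. In the catalytic head, ATP5F1A was the lowest of the complex with cordyceps at -0.14 and had 0.13 with sunitinib, while ATP5F1B had 0.05 and -0.26. Of the peripheral stalk, ATP5PD was the highest with sunitinib at 0.17. The other 8 members of complex V were within the error limit in both comparisons.

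Side by side, 40 of the 58 subunits were within the error limit in both comparisons, which share the vehicle array. SDHB and UQCRH were higher in both. NDUFS6, NDUFS8 and ATP5MC1 were higher with cordyceps and lower with sunitinib. Of all genes, 13.2% were higher and 11.9% lower with cordyceps, and 19.8% and 19.0% with sunitinib. The share of all genes in both comparisons was not counted. With cordyceps, ATP5MC1 and NDUFS8 fell within the limit under quantile normalization, normexp and without scaling, and ATP5MC1 also under the percentile over detected probes. Without scaling NDUFS6 and SDHB did too. SDHB was not higher beyond it with sunitinib when scaled to the median, with normexp or unscaled.

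Further nuclear subunits and the genes around the chain were set beside the 58, from lists chosen with earlier results of these data in view. Another 21 nuclear subunits had a median log2 ratio of 0.11 with cordyceps and of 0.14 with sunitinib. Beyond the error limit 3 were higher and 0 lower with cordyceps, where 13.2% and 11.9% of all genes were. With sunitinib 2 were higher and 1 was lower, where 19.8% and 19.0% of all genes were. The highest and lowest of the 21 with sunitinib were ATP5MJ at 0.77 and NDUFB1 at -0.49. Of the tissue-restricted isoforms, 2 of 8 could be compared. COX6B2, the isoform of COX6B known from testis, was 2.19 higher with sunitinib on the log2 scale, at processed signals of 4791, 5131 and 10361, and 0.35 with cordyceps. Its second probe was too dim to count as well above background. NDUFA4L2, the paralogue of NDUFA4 that is induced by hypoxia, was just above background on the vehicle array, at 29.7, and below it on the others, so no ratio is given.

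Assembly factors build the complexes without remaining in them. The 19 factors of complex I had medians of 0.18 and -0.17, with 4 higher with cordyceps (13.2% of all genes were) and 4 lower with sunitinib (19.0% of all genes) beyond the error limit. Among them NDUFAF2 was more than 2-fold higher with cordyceps, at levels of 2.93, 3.96 and 2.23 and ratios of 1.03 and -0.70. Its second probe, with a vehicle signal of 1110 beside 1253, gave 0.80 and -0.51, short of 2-fold with cordyceps. The 23 factors of complex IV had medians of 0.06 and -0.07, with 1 higher and 3 lower with cordyceps and 4 higher and 5 lower with sunitinib, and COX17, the copper chaperone of the complex, was more than 2-fold higher with cordyceps, at 4.99, 6.05 and 4.43 and ratios of 1.07 and -0.56. The 5 factors of complex III had medians of 0.20 and -0.42, with 2 higher with cordyceps and 3 lower with sunitinib beyond the limit. The 4 factors of complex II had medians of 0.32 and 0.07, with 2 higher with cordyceps and 1 lower with sunitinib. The 4 of complex V had -0.04 and -0.03, with 1 higher and 1 lower with cordyceps and 0 either way with sunitinib. Of all genes, 11.9% were lower with cordyceps and 19.8% higher with sunitinib beyond the limit. Like NDUFS6, NDUFS8 and ATP5MC1, both NDUFAF2 and COX17 were thus beyond the limit in opposite directions on the treated arrays.

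Electron carriers and dehydrogenases that feed ubiquinone, 7 genes, had medians of 0.21 with cordyceps, where 2 were higher beyond the limit, and -0.39 with sunitinib, where 1 was higher and 3 were lower. CYCS, cytochrome c itself, lay at 2.55, 3.07 and 1.58, with 0.52 and -0.97 at its brightest probe; a dimmer probe gave -0.72 with cordyceps. DHODH, which makes pyrimidines, lay at 1.82, 2.30 and 0.82. The 78 proteins of the mitochondrial ribosome, which translates the mitochondrially encoded subunits, had medians of 0.17 and -0.04. Beyond the error limit, 9 were higher and 0 lower with cordyceps, and 7 were higher and 20 lower with sunitinib, none past 2-fold, where among all genes 13.2% and 11.9% were so with cordyceps and 19.8% and 19.0% with sunitinib. The 18 enzymes of the tricarboxylic acid cycle had medians of 0.08 and -0.24, with 2 higher with cordyceps and 7 lower with sunitinib, beside the same 13.2% and 19.0% of all genes. Subunits encoded in mitochondrial DNA were not analysed here.

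Regulators of mitochondrial biogenesis showed the widest ratios of these lists with sunitinib, with a median of -0.50 over 15 genes, 1 of them higher and 7 lower beyond the limit, and 0.00 with cordyceps, where 3 were higher. Of all genes 19.8% were higher and 19.0% lower with sunitinib, and 13.2% were higher with cordyceps. GABPB1, the partner of GABPA, lay at 0.91, 1.31 and -0.69, a ratio of 0.41 with cordyceps and -1.60 with sunitinib. Its second probe gave -0.27 with cordyceps, the other direction, and -0.81 with sunitinib. The coactivators PPARGC1B and PPRC1 had ratios of -1.56 and -1.31, and -0.35 and -0.03 with cordyceps. PPARGC1A, the best known coactivator of the family, went the other way at 1.63, from signals of 29.1, 28.2 and 42.8 near the background. TWNK, the mitochondrial DNA helicase, had signals of 93.7, 88.9 and 19.6, the last not well above background, for a bound of -1.18 with sunitinib. TFAM, which packages mitochondrial DNA, had 0.57 and -0.50; for ESRRA, the gene of ERRα, the ratios were 0.23 and -0.52, for TFB2M -0.12 and -0.68, and for POLG, the mitochondrial DNA polymerase, 0.02 and -0.60. POLRMT, the mitochondrial RNA polymerase, had 0.57 and 0.12. Within the error limit were GABPA at -0.10 and 0.04, YY1 at -0.00 and -0.21, TFB1M at 0.30 and -0.29, MTERF1 at -0.37 and -0.35, and TEFM at 0.00 and 0.22. NRF1 was not well above background.

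**Figure D4:**
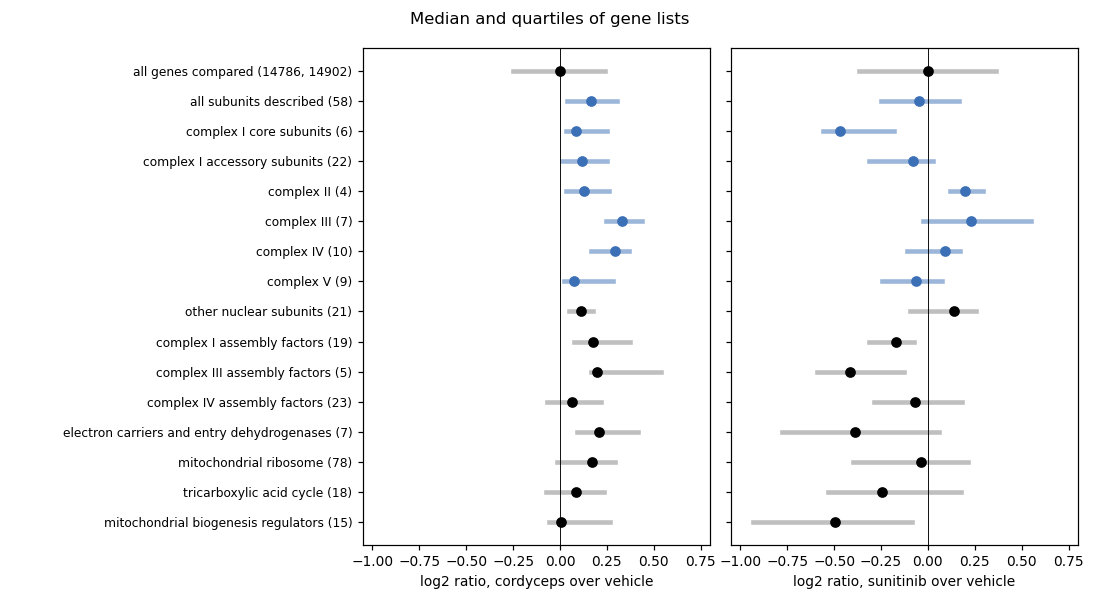
Median (points) and quartiles (bars) of the log2 ratio over vehicle (horizontal axis) for the subunits by complex (blue) and for other gene lists (black and grey), with the number of genes compared in brackets, for cordyceps on the left and sunitinib on the right, 1 array a group. Core subunits of complex I lie at 0.09 and -0.47 and complex III at 0.33 and 0.23, while biogenesis regulators lie at 0.00 and -0.50.

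Promoter windows of 300 bases, from 250 before to 50 after the start, were found in the RefSeq table for 48 of the 58 genes. Each motif was searched on both strands. The NRF1 motif GCATGCGC stood in 10 of the 48 (20.8%), against 3.27% of 27305 windows in all and 4.26% of 15843 windows of coding genes. The ETS motif CCGGAAGT was in 8 (16.7%), against 4.44% and 6.19%, the YY1 motif AAGATGGC in 8 (16.7%), against 3.03% and 3.91%, and the ERR element TNAAGGTCA in 2 (4.17%), against 0.963% and 0.638%. The E-box CACGTG was in 3 (6.25%), against 7.43% and 8.88%, and the GC box GGGCGG in 31 (64.6%), against 44.6% and 58.5%.

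The log2 ratios of members with and without these letters were set side by side. The 10 members with the NRF1 motif were COX5B, COX6A1, NDUFA6, NDUFA8, NDUFB4, NDUFS6, NDUFS7, SDHB, SDHD and ATP5F1C, with a median log2 ratio of 0.31 with cordyceps and -0.01 with sunitinib, beside 0.15 and -0.04 over the 38 members without it. The 8 members with the ETS motif had 0.26 and 0.01, beside 0.15 and -0.05 over 40 without it. For the YY1 motif the medians were 0.19 and -0.01 over 8 members, beside 0.18 and -0.04 over 40. The 3 members with the E-box, ATP5MC1, ATP5PB and NDUFS7, had 0.03 and -0.42, beside 0.18 and -0.04 over 45, and the 2 with the ERR element, NDUFB4 and SDHD, had 0.03 and 0.22, beside 0.19 and -0.05 over 46. For the GC box the medians were 0.20 and -0.04 over 31 members, beside 0.17 and -0.05 over 17. The members with the NRF1, YY1 and GC box motifs include NDUFA6, whose 1.05 with cordyceps came from a spot in the bright streak. Medians without it were not taken.

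The medians of the complexes relative to all genes were also taken under each other way of processing the arrays. With cordyceps, the median of complex III stayed between 0.19 and 0.37 above that of all genes and the median of complex IV between 0.15 and 0.35, while complexes I, II and V lay between -0.06 and 0.19. With sunitinib, the core subunits of complex I stayed between -0.77 and -0.46 and complex I as a whole between -0.40 and -0.09. Complex III lay between 0.18 and 0.23 except with normexp background correction and without a filter on dim probes, where it was -0.02 in both. Complex II lay between 0.17 and 0.33 except in the same settings, where it was -0.09 and -0.05. Complex IV was between 0.06 and 0.10 except under quantile normalization, normexp and no filter, where it turned to -0.27, -0.21 and -0.16.

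**Figure D5:**
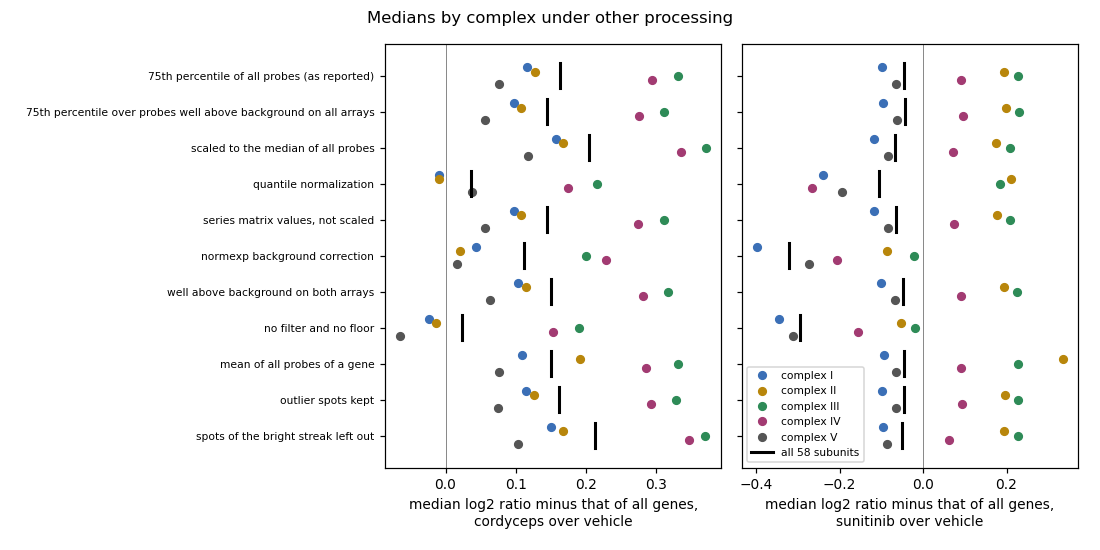
Median log2 ratio of each complex (coloured points) and of all 58 subunits (black lines, 55 where the streak was left out) minus the median of all genes (horizontal axis), under each way of processing the arrays (rows), for cordyceps on the left and sunitinib on the right. Complexes III and IV lie to the right of the others for cordyceps in every row, and complex I lies to the left of complex III for sunitinib in every row.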

How the data were processed

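RNA of TK-10 cells was measured on 3 single-colour Agilent arrays, 1 a group, grouped by the labels. For each array there is the scanner output of Feature Extraction 11.5.1.1 as the authors deposited it. Its values are intensity, linear and not scaled between arrays. The processed signal has the background removed, and an error is given for every spot. The header names build hg19. A further table that the authors deposited held the mean processed intensity of each probe (within 0.01% for 99.87% to 99.92% of probes). The array and the ratio test in the study's methods are of another kind, and the limit of 2-fold alone was kept.

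Control spots were dropped, and so were outlier spots (103, 121 and 63 on the vehicle, cordyceps and sunitinib arrays). Repeated spots were averaged per probe, and log2 was taken relative to the array's 75th percentile. Accessions were turned into symbols with RefSeq's table of GRCh38.p14, which served for no coordinates of probes; 24751 of the 25277 NM probes found a name. Each gene was read from its brightest probe and compared where 1 or both arrays were well above background. A dim side was raised to the lowest detected signal where it lay below it. A gene whose bound showed no difference counted as 0. The error limit is the 95% normal limit of the combined spot errors, which cover the spot and not the culture. The number of arrays limits the precision, and no test was possible.

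The streak was found as windows of 7 by 7 spots whose median exceeded the other arrays by over 1 on the log2 scale. The members and lists were chosen with earlier results of these data known. Genes named are members past 2-fold or beyond the error limit, the extremes of each complex, the 3 brightest and 3 dimmest, those in the streak, members of other lists past 2-fold and all biogenesis regulators. Some genes outside the 58 are not reported here. The members beyond the error limit, ATP5MC2, the extremes of the other subunits, CYCS, DHODH, and the promoters of NDUFS1 and SDHD were added after their values were seen, and those of NDUFA4 and NDUFA4L2, which held none of the motifs marked in capitals, are not printed. Python 3.11.15, numpy 2.4.6, pandas 2.3.3 and R 4.3.3 with limma 3.58.1 (normexp) were used, and the script was tested on simulated data.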

Additional observations from a re-analysis of the deposited data

How the results depend on the processing

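All results rest on 1 array a group, and the spots' errors leave out the spread between cultures. No paired analysis was possible because each group has 1 array. Naming by the files' own gene names was not run, since the columns used here hold none.

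Counts of subunits past 2-fold or the error limit stayed within 1.5 times of those reported, and the subunits' own medians near theirs, under the percentile over detected probes, outlier spots kept, both arrays required to be well above background, no filter on dim probes, and the mean of all probes. Under the first of these, 45 subunits were higher and 13 lower by any amount with cordyceps. Scaled to the median, 2 subunits were over 2-fold higher, 28 were higher beyond the error limit and the median was 0.39 with cordyceps; with sunitinib 0 were over 2-fold higher and 3 lower, 1 higher and 27 lower beyond the limit, with a median of -0.38. The median of all genes was then 0.18 and -0.31. Beyond the limit, 4022 of 14785 genes were higher with cordyceps and 5558 of 14907 lower with sunitinib. Quantile normalization gave 0 over 2-fold, 4 higher and 1 lower beyond the limit and a median of 0.0107 with cordyceps. Of 14784 genes, 1667 were higher and 2099 lower beyond it there. With sunitinib 22.2% of the calls beyond the limit were higher, beside 33.3% as reported. The series' table, not scaled, gave 0 over 2-fold, 2 higher and 3 lower beyond the limit and a median of -0.0918 with cordyceps, and 0 over 2-fold higher, 37 lower, 0 higher and 57 lower beyond the limit and -1.12 with sunitinib, with medians of all genes of -0.24 and -1.06. Of 14917 genes in it, 11098 were lower beyond the limit with sunitinib and 8011 were over 2-fold lower. In it NDUFB5, SDHB, UQCRB and UQCRC2 turned to -0.49, -0.59, -0.53 and -0.52 with sunitinib. With normexp, 4 were higher and 1 lower beyond the limit with cordyceps, and with sunitinib 0 were over 2-fold higher, 4 lower, 1 higher and 28 lower beyond the limit, with a median of -0.39. Of all genes with normexp, 1125 of 14784 were higher and 1573 lower beyond the limit with cordyceps, and 1336 and 3956 of 14907 with sunitinib. Without the streak 0 were over 2-fold higher with cordyceps, beside 388 of 14652 genes. At 1.5-fold, 3 were higher with cordyceps, and 2 higher and 4 lower with sunitinib. Of all genes, 1287 of 14786 were higher with cordyceps, and 2320 and 2311 of 14902 were higher and lower with sunitinib. The 10 subunits lower beyond the limit with sunitinib remained so in every setting run. Counted per subunit, comparison and setting, 841 ratios moved by less than their error, 309 by more and 4 reversed, and the cause was not tested. The 4 were those of NDUFB5, SDHB, UQCRB and UQCRC2, beyond the error limit on opposite sides. Smaller ratios changed sign more often. With sunitinib 25 subunits were higher by any amount as reported, but 1 without scaling. With cordyceps 50 were higher as reported, 22 without scaling, 31 under quantile normalization and 56 when scaled to the median.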

Other observations

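COXFA4L3, a paralogue of NDUFA4 also known as C15orf48 and induced in inflammation, was looked at after its values were seen. Its processed signal was 11070 on the vehicle array, 10884 on the cordyceps array and 1776 on the sunitinib array, for log2 ratios of 0.23 and -1.57, while NDUFA4 itself had 0.03 and 0.12.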
